A study of Mus musculus with 2 samples.

Results

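Tags of 8 mouse genes were counted in small RNA libraries of CD11c+Ia_low and CD11c+Ia_high spleen cells. The genes are Runx2, Tcf4, Spib, Bst2 and Siglech, which are used to recognise plasmacytoid dendritic cells, and Jchain, Prdm1 and Xbp1, which are used to recognise plasma cells. A tag is a distinct RNA sequence with its read count. A tag was given to a gene when it was 20 to 30 nt long and identical, in sense, to transcripts of exactly 1 protein-coding gene of the GENCODE M21 annotation. The 8 genes held 144 tags with 1605 reads in the Ia_low library and 232 tags with 1222 reads in the Ia_high library. Across the series, 11911 protein-coding genes had such a tag.

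Both populations came from the spleen of C57BL/6J mice and carried the integrin chain CD11c, by which cells were enriched on beads. Ia is a mouse MHC class II molecule, which presents peptides to helper T cells, and the sort on it gave the Ia_low cells and the Ia_high cells, 1 library each, at a labelled purity over 95%. The labels call both dendritic cells and give no age, treatment or number of pooled animals. There were no replicates, so every difference below compares a pair of libraries and has no replicate check. The intervals are exact 95% intervals that cover counting error only, since each population had 1 library. Copies made in PCR carried no molecular identifiers, so they could not be told from separate molecules. The intervals treat each tag as an independent count, although many tags overlap and differ only at their ends, so they may be too narrow.

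Plasmacytoid dendritic cells sense nucleic acids through endosomal Toll-like receptors and release large amounts of type I interferon. Their identity rests on the E protein Tcf4, with Runx2 and Spib acting beside it, and Siglech and Bst2 are the surface proteins by which they are usually sorted in mice. Plasma cells are the antibody-secreting end of the B cell lineage. Prdm1 (Blimp-1) shuts off the B cell program there, Xbp1 enlarges the secretory apparatus, and the J chain joins IgA and IgM units into polymers. The genes are not restricted to these cells: Bst2 is induced by interferon in many cell types, Xbp1 works in most secretory cells and in dendritic cells, and Spib and Prdm1 also act in B cells and in some dendritic cells and T cells.

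The Ia_low library held 142394 tags of protein-coding genes with 2605657 reads, and the Ia_high library 343784 such tags with 3280742 reads. A tag was read 18.3 times on average in Ia_low and 9.54 times in Ia_high, and tags of 20 to 24 nt made up 36.1% of them in Ia_low and 49.0% in Ia_high. Sorting on Ia can be seen in the class II chains: H2-Aa had 189 tags in Ia_low and 972 in Ia_high, a ratio of 0.469 (0.400 to 0.549) after scaling, and H2-Ab1 had 185 in Ia_low and 922 in Ia_high, a ratio of 0.484 (0.411 to 0.568). Tags of cDC1 genes, which mark a conventional dendritic cell subset, were fewer in Ia_low, and those of Ly6C-low monocyte genes more frequent, as given with the marker lists below.

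The tags below are up to 3 coding tags from the most read coding site of each of 6 genes, printed to show what was counted: short sense pieces of exons, which for all but Siglech share a core and differ at their ends. Each is printed 5′ to 3′ as the transcript strand reads, with the bases shared by all tags shown of that gene in capitals. Positions are on GRCm38 and lie in the coding sequence. The Spib tags came from exon 3 of 6 on the minus strand of chromosome 7, the first at chr7:44529889-44529911, the second at chr7:44529887-44529911 and the third at chr7:44529889-44529910. They were read 0 times in Ia_low, and 27, 4 and 7 times in Ia_high.
Spib tag 1: tACGACCTGGACAGCTGCAAGCC
Spib tag 2: tACGACCTGGACAGCTGCAAGCCct
Spib tag 3: ACGACCTGGACAGCTGCAAGCC
The 3 Bst2 tags came from exon 4 of 5 on the minus strand of chromosome 8, at chr8:71534754-71534777, chr8:71534753-71534774 and chr8:71534754-71534773. They too had 0 reads in Ia_low, and they had 4, 5 and 4 reads in Ia_high.
Bst2 tag 1: ttctAGCACAGTGCAGGTGAACTC
Bst2 tag 2: tAGCACAGTGCAGGTGAACTCt
Bst2 tag 3: AGCACAGTGCAGGTGAACTC
The coding Siglech tag, from exon 2 of 5 on the plus strand at chr7:55768952-55768971, had 0 reads in Ia_low and 14 in Ia_high.
Siglech tag 1: ATGTGCTCTGTGCCCTGGGC
The Jchain tags came from exon 3 of 4 on the minus strand of chromosome 5, at chr5:88522521-88522545, chr5:88522522-88522544 and chr5:88522518-88522542. They had 8, 8 and 12 reads in Ia_low and 0 in Ia_high.
Jchain tag 1: tctGATCCCACCTCCCCACTGAGAa
Jchain tag 2: ctGATCCCACCTCCCCACTGAGA
Jchain tag 3: GATCCCACCTCCCCACTGAGAagga
The Prdm1 tags came from exon 3 of 8 on the minus strand of chromosome 10, at chr10:44456817-44456841, chr10:44456812-44456841 and chr10:44456812-44456835. They had 12, 16 and 15 reads in Ia_low and 0 in Ia_high.
Prdm1 tag 1: gaagttTCAAGGACTGGCAGAGACT
Prdm1 tag 2: gaagttTCAAGGACTGGCAGAGACTgggat
Prdm1 tag 3: TCAAGGACTGGCAGAGACTgggat
The Xbp1 tags came from exon 5 of 5 on the plus strand of chromosome 11, at chr11:5524695-5524718, chr11:5524695-5524720 and chr11:5524696-5524721. They had 20, 23 and 4 reads in Ia_low, and 0, 22 and 28 in Ia_high.
Xbp1 tag 1: tTTTGGGCATTCTGGACAAGTTGG
Xbp1 tag 2: tTTTGGGCATTCTGGACAAGTTGGac
Xbp1 tag 3: TTTGGGCATTCTGGACAAGTTGGacc

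The exact tag was often private to a library even where the site was not. Counting all coding tags that overlap those printed by 15 bases or more, the Prdm1 site had 4 tags with 44 reads in Ia_low and 2 tags with 11 reads in Ia_high. The Jchain site had 3 tags with 28 reads in Ia_low and 2 tags with 11 reads in Ia_high, and the Xbp1 site had 9 tags with 112 reads in Ia_low and 8 tags with 80 reads in Ia_high. The Spib site had 0 tags in Ia_low and 4 tags with 42 reads in Ia_high, and the Bst2 site had 0 tags in Ia_low and 4 tags with 16 reads in Ia_high. Of the 355 distinct tags of the 8 genes, 21 were present in both libraries, which is 14.6% of the Ia_low tags and 9.05% of the Ia_high tags. Over all protein-coding genes 19.99% of the Ia_low tags and 8.28% of the Ia_high tags were shared.

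In distinct tags, the plasmacytoid factor Runx2 and the plasma cell genes Jchain and Prdm1 were higher in Ia_low, the plasmacytoid factors Tcf4 and Spib were lower, and Bst2 and Xbp1 passed neither way. A gene was called when its share of the library's mRNA tags differed at least 2-fold and the counting interval of the ratio excluded 1, and genes with 10 tags or more in both libraries together were measured. Of the 7 measured genes, 3 were called higher in Ia_low and 2 lower; over the 7132 genes measured in the whole table, 6.21% were called higher and 8.51% lower. In reads, Bst2 was also past the limits, so that 4 members were called higher and 2 lower. By reads, 11.3% of the 7132 genes were called higher and 19.9% lower. Intervals in reads count copies of a tag as separate, and the 101 Bst2 reads in Ia_low came from 8 tags. Siglech, with 4 tags in all, was under the minimum. Fewer cells of a type and less RNA per cell cannot be told apart in libraries of sorted bulk cells, and the tags count pieces of mRNA, not whole transcripts.

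**Figure D1:**
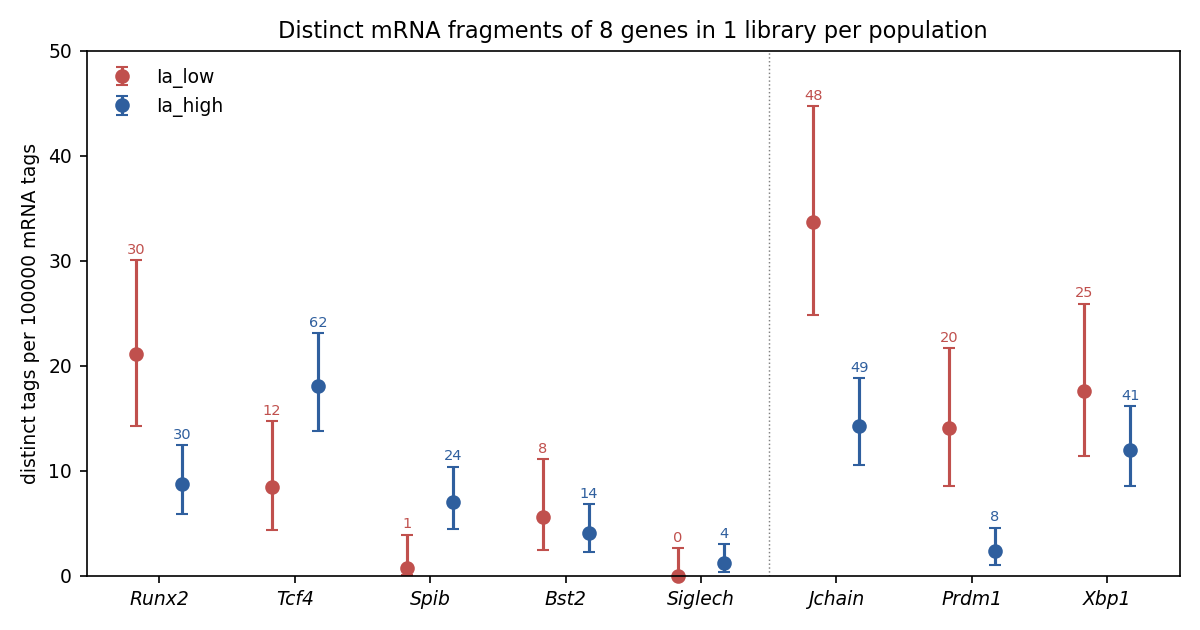
Distinct tags per 100000 mRNA tags for the 8 genes in the Ia_low library (left of each pair) and the Ia_high library (right), with exact 95% counting intervals; the numbers above are the tag counts. Runx2, Jchain and Prdm1 stand higher in Ia_low (21.1, 33.7 and 14.0 per 100000) and Tcf4 and Spib lower (8.43 and 0.702).

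Among the plasmacytoid transcription factors, Runx2 was higher in Ia_low and the other 2 were lower. Runx2, a Runt-domain factor that in plasmacytoid cells promotes exit from the bone marrow and is otherwise known as the master factor of bone formation, lies at chr17:44495987-44814797 on the minus strand. It had 30 tags with 284 reads in Ia_low and 30 tags with 142 reads in Ia_high. Scaled to the library, these were 21.1 tags per 100000 (14.2 to 30.1) in Ia_low and 8.73 (5.89 to 12.5) in Ia_high, a ratio of 2.41 (1.41 to 4.15), and 2.52 in reads.

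No Runx2 tag was shared by the libraries, and likewise none of Tcf4, Spib, Bst2 or Siglech, while Jchain shared 13, Xbp1 6 and Prdm1 2. The tags covered 20 separate stretches of the transcript in Ia_low and 21 in Ia_high, 14.8% of its 6463 nt together, and the most read tag held 5.63% of the Runx2 reads in Ia_low and 7.04% in Ia_high, so no single fragment carried the counts. In the coding sequence there were 15 tags in Ia_low and 10 in Ia_high, and in the 3′ UTR 13 in Ia_low and 17 in Ia_high. The longer tags differed more: Runx2 had 25 tags of 25 to 30 nt in Ia_low and 15 in Ia_high, a ratio of 3.21, but 5 tags of 20 to 24 nt in Ia_low and 15 in Ia_high, a ratio of 1.09, at which the call was lost. The call was lost too when tags were scaled to all tags of 20 to 30 nt rather than to those of mRNA, at a ratio of 1.83.

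Tcf4, the E protein on which plasmacytoid identity depends, lies at chr18:69343356-69689079 on the plus strand. It had 12 tags with 118 reads in Ia_low and 62 tags with 317 reads in Ia_high. That is 8.43 tags per 100000 (4.35 to 14.7) in Ia_low and 18.0 (13.8 to 23.1) in Ia_high, a level 2.14-fold lower in Ia_low (1.14 to 4.36), and 2.13-fold lower in reads.

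Tcf4 was the gene with the most tags in Ia_high and the one spread over the most transcripts, 62 in the annotation. Its tags formed 10 stretches in Ia_low and 32 in Ia_high. In the 3′ UTR lay 7 tags in Ia_low and 34 in Ia_high. Only Tcf4 transcripts not annotated as protein-coding were matched by 1 tag in Ia_low and 7 in Ia_high. The ratio stayed below 1 but missed 2-fold under 4 alternatives, at 0.729 with tags of 20 to 24 nt, 0.529 with coding tags alone, 0.754 by stretches and 0.516 when centred on the median of all genes.

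Spib, an Ets factor of B cells and plasmacytoid cells, lies at chr7:44525993-44532071 on the minus strand. It had 1 tag with 3 reads in Ia_low and 24 tags with 123 reads in Ia_high. The levels were 0.702 tags per 100000 (0.0178 to 3.91) in Ia_low and 6.98 (4.47 to 10.4) in Ia_high, and Spib was 9.94-fold lower in Ia_low, within a wide interval of 1.62 to 409.

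The single counted Ia_low tag of Spib was 30 nt long and lay in the 3′ UTR. In Ia_high the tags formed 17 stretches, with 6 in the coding sequence and 17 in the 3′ UTR, and the coding tag printed first above held 21.95% of the reads. Of the 8 genes, Spib had the lowest ratio among those measured. Tags of 20 to 24 nt were 0 in Ia_low and 14 in Ia_high. Tags of 25 to 30 nt were 1 in Ia_low and 10 in Ia_high, a ratio of 0.193 that was no longer called, and neither were the coding tags, of which Ia_low had 0 and Ia_high had 6.

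The plasmacytoid surface genes were sparse. Bst2 (CD317, tetherin), an interferon-induced protein that holds budding virus at the membrane, lies at chr8:71534255-71537456 on the minus strand. It had 8 tags with 101 reads in Ia_low and 14 tags with 51 reads in Ia_high. The levels of 5.62 (2.43 to 11.1) per 100000 in Ia_low and 4.07 (2.23 to 6.83) in Ia_high overlapped, with a ratio of 1.38 (0.501 to 3.52).

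For Bst2 the measures gave different answers. The ratio in reads was 2.49, and the most read tag alone held 30.7% of its Ia_low reads. Without its most read tag the ratio in reads was 1.73. Bst2 had 7 tags of 25 to 30 nt in Ia_low and 4 in Ia_high, a ratio of 3.37, and 1 tag of 20 to 24 nt in Ia_low and 10 in Ia_high, a ratio of 0.328. Coding tags of Bst2 were 0 in Ia_low and 8 in Ia_high, whereas in the 3′ UTR there were 6 in Ia_low and 3 in Ia_high.

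Siglech, a sialic acid-binding lectin of plasmacytoid cells, lies at chr7:55768178-55778925 on the plus strand. It had 0 tags in Ia_low, for which the exact interval allows up to 2.59 per 100000. In Ia_high it had 4 tags with 27 reads, or 1.16 per 100000 (0.317 to 2.98), of which 1 tag held 14 reads. In distinct tags a difference between the libraries was not detectable at this depth. In reads, 0 in Ia_low and 27 in Ia_high, the interval of the ratio reached up to 0.184 and so excluded 1, but those reads are copies of 4 tags.

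The plasma cell genes were higher in Ia_low or passed neither way. Prdm1, the repressor that ends the B cell program, lies at chr10:44437177-44528501 on the minus strand. It had 20 tags with 186 reads in Ia_low and 8 tags with 40 reads in Ia_high. The levels were 14.0 tags per 100000 (8.58 to 21.7) in Ia_low and 2.33 (1.005 to 4.59) in Ia_high, a ratio of 6.04 (2.55 to 15.8), the highest of the 8 genes.

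The Prdm1 ratio was the steadiest of those measured, between 4.57 and 6.77 over the 14 alternatives with a value. Its tags lay on 16 stretches in Ia_low and 7 in Ia_high, with 13 coding tags in Ia_low and 6 in Ia_high. The ratio was 6.56 with tags of 20 to 24 nt and 5.78 with tags of 25 to 30 nt. Prdm1 was the measured member that passed at 3-fold in the higher direction.

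Jchain, the joining chain of polymeric IgA and IgM, lies at chr5:88519809-88527891 on the minus strand. It had 48 tags with 651 reads in Ia_low and 49 tags with 281 reads in Ia_high. The levels were 33.7 tags per 100000 (24.9 to 44.7) in Ia_low and 14.3 (10.5 to 18.8) in Ia_high, a ratio of 2.37 (1.55 to 3.60), and 2.92 in reads.

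Jchain tags lay on 15 stretches in Ia_low and 14 in Ia_high and covered 40.8% of its 1393 nt, the largest share of the 8 transcripts. In the coding sequence there were 15 tags in Ia_low and 11 in Ia_high, and in the 3′ UTR 31 in Ia_low and 33 in Ia_high. Tags of both length bands gave a like ratio, 2.34 for 20 to 24 nt and 2.57 for 25 to 30 nt. Scaled to all tags of 20 to 30 nt the ratio was 1.79 and the call was lost.

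Xbp1, a factor of the unfolded protein response, lies at chr11:5520659-5525893 on the plus strand. It had 25 tags with 262 reads in Ia_low and 41 tags with 241 reads in Ia_high. Of these, 7 tags in Ia_low and 11 in Ia_high matched only Xbp1 transcripts not annotated as protein-coding. The levels of 17.6 per 100000 (11.4 to 25.9) in Ia_low and 11.9 (8.56 to 16.2) in Ia_high gave a ratio of 1.47 (0.858 to 2.48), which did not exclude 1. With coding tags alone, 16 in Ia_low and 14 in Ia_high, the ratio was 2.82 and Xbp1 was called higher.

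Xbp1 mRNA is cut by the kinase Ern1 (IRE1), which removes an intron of 26 nt and changes the reading frame, giving the active factor. A search of the transcript placed this cut after nt 814, with 267 residues encoded without removal and 371 with it. No tag in Ia_low or in Ia_high crossed the joined ends, and none crossed the intact site, so the libraries hold no measure of Xbp1 splicing.

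**Figure D2:**
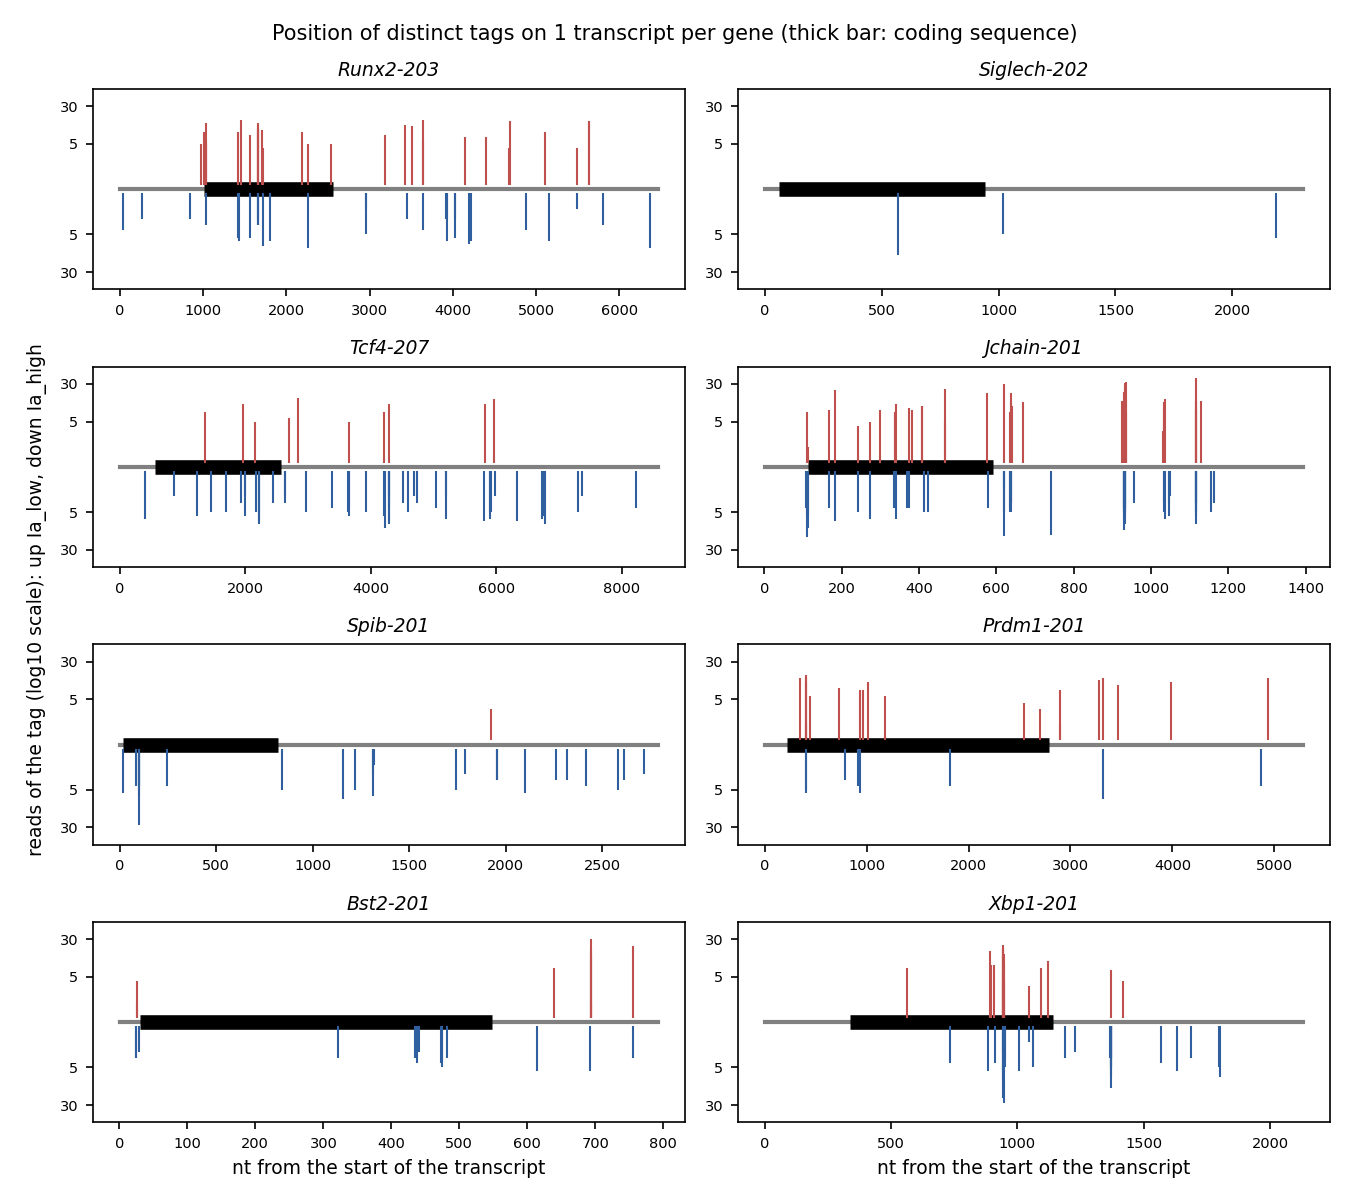
Position of each tag along the transcript of each gene, with Ia_low tags drawn up and Ia_high tags drawn down, and line height as log10 of the reads. Tags lie in many separate stretches for Runx2 (20 in Ia_low and 21 in Ia_high) and Tcf4 (10 in Ia_low and 32 in Ia_high). The single counted Ia_low tag of Spib lies in the 3′ UTR.

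Per length, the order of the genes differed between the libraries. These levels count tags on 1 reference transcript per gene. They leave out 9 tags in Ia_low and 29 in Ia_high found only on other transcripts of the genes. In tags per kb and 100000 mRNA tags, Ia_low ran from Jchain at 24.2 through Bst2 at 7.09, Xbp1 at 5.94, Runx2 at 3.26 and Prdm1 at 2.66 to Tcf4 at 0.819, Spib at 0.252 and Siglech at 0. Only Jchain over Bst2, and Prdm1 over Tcf4, were neighbours whose intervals did not overlap in Ia_low. In Ia_high the order was Jchain at 10.2, Bst2 at 5.14, Xbp1 at 3.83, Spib at 2.504, Tcf4 at 1.59, Runx2 at 1.35, Prdm1 at 0.441 and Siglech at 0.379. There the only neighbours whose intervals did not overlap were Runx2 and Prdm1.

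**Figure D3:**
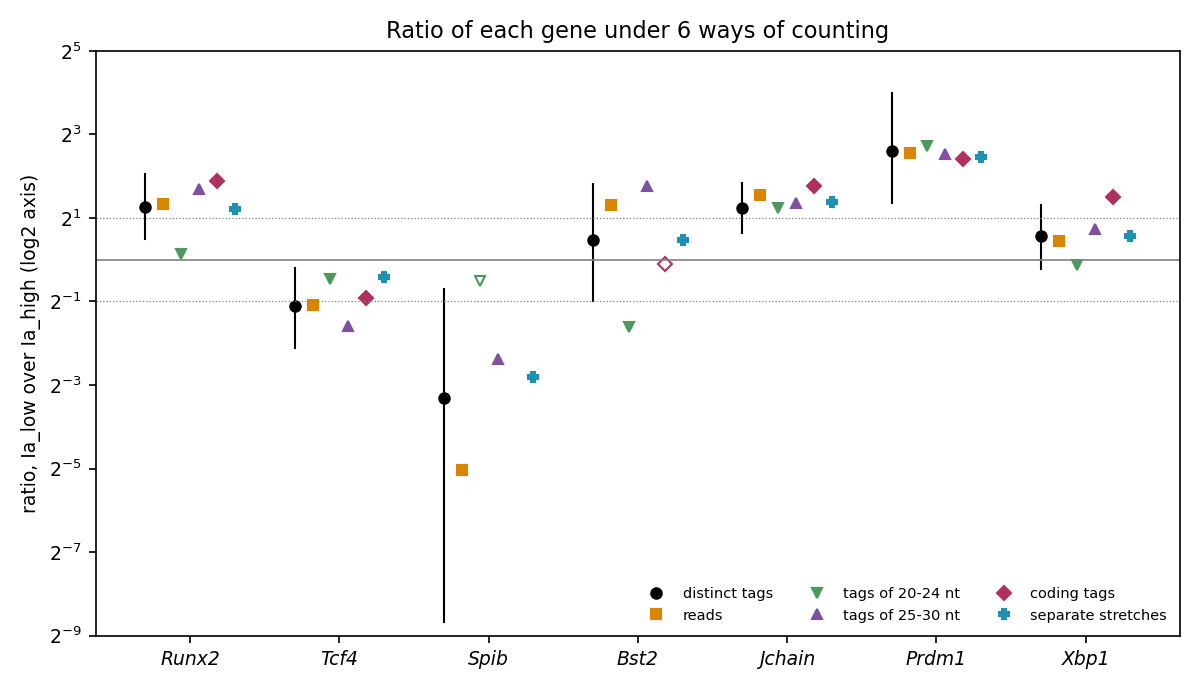
Ratio of Ia_low to Ia_high (log axis) of the 7 measured genes under 6 ways of counting, with black bars for the 95% counting interval of the distinct tag ratio and dotted lines at 2-fold. Open symbols are upper bounds for a count of 0 in Ia_low set to 3 tags. Prdm1 stays above 4, while Bst2 and Xbp1 lie on both sides of 1.

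Plasma cells also make antibody, so tags of immunoglobulin genes, which carry their own biotype and were matched apart from protein-coding genes, were counted for comparison. Tags matching more than 1 such gene were left out. Igha, the IgA heavy chain constant region, had 259 tags in Ia_low and 143 in Ia_high, which is 182 per 100000 mRNA tags in Ia_low and 41.6 in Ia_high, a ratio of 4.37 (3.55 to 5.40). Igkc, the kappa light chain constant region, had 139 tags in Ia_low and 145 in Ia_high, a ratio of 2.31 (1.82 to 2.94), and Ighg2c had 47 in Ia_low and 43 in Ia_high, a ratio of 2.64 (1.71 to 4.09). Ighm, the IgM heavy chain, had 32 tags in Ia_low and 180 in Ia_high, 2.33-fold lower (1.59 to 3.51). Of the 6 constant region genes measured, these were the 3 called higher in Ia_low and the 1 called lower. Ighg2b, with 19 tags in Ia_low and 42 in Ia_high, had a ratio of 1.09 (0.600 to 1.92). Iglc1 had 4 in Ia_low and 6 in Ia_high. Under the minimum, Ighg1 had 1 tag in Ia_low and 7 in Ia_high, Ighg3 0 and 6, Ighd 2 and 5, and Iglc3 1 and 2.

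Igha made up 71.9% (67.0 to 76.5) of the 360 heavy chain constant region tags in Ia_low and 33.6% (29.1 to 38.3) of the 426 in Ia_high. Ighm made up 8.89% (6.16 to 12.3) in Ia_low and 42.3% (37.5 to 47.1) in Ia_high. The 80 variable region genes with a tag had 102 tags in Ia_low and 127 in Ia_high, a ratio of 1.94 (1.48 to 2.54). Of them 6 were measured, with 1 called higher in Ia_low and 0 lower. Over the 10 constant region genes with a tag there were 354 tags per 100000 in Ia_low and 168 in Ia_high, a ratio of 2.10 (1.86 to 2.37), beside 2.37 (1.55 to 3.60) for Jchain.

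**Figure D4:**
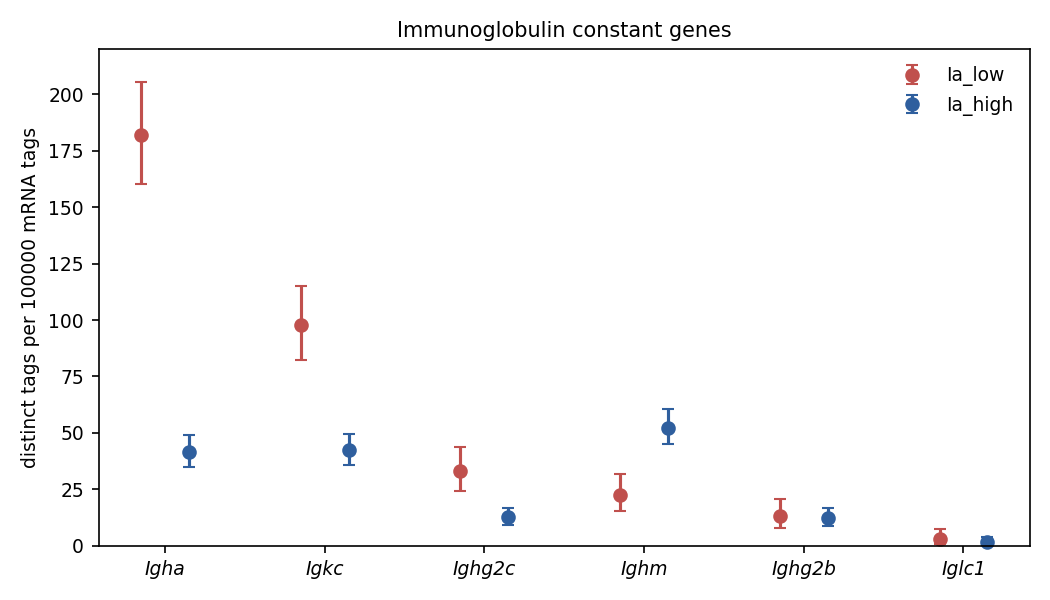
Distinct tags of immunoglobulin constant region genes per 100000 mRNA tags in Ia_low (red, left of each pair) and Ia_high (blue), for the 6 genes measured, with exact 95% counting intervals. Igha is at 182 in Ia_low and 41.6 in Ia_high, and Ighm at 22.5 in Ia_low and 52.4 in Ia_high.

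Other genes used for the same cells gave mixed counts. All lists were drawn with results of these data known. Of each list the 2 measured genes with the highest and the 2 with the lowest ratio are named, and any others were named after their values were seen. The median log2 ratio over all measured genes was -0.14. Of 22 other plasmacytoid genes 12 were measured, with 4 called higher in Ia_low, 2 lower and 6 neither, and a median log2 ratio of 0.39. Tlr7, the endosomal receptor for single-stranded RNA, had 77 tags in Ia_low and 66 in Ia_high, a ratio of 2.82 (2.001 to 3.97). Lair1, an inhibitory collagen receptor, had 55 tags in Ia_low and 55 in Ia_high, a ratio of 2.41 (1.63 to 3.57). Zeb2, a repressor needed for plasmacytoid development, had 136 tags in Ia_low and 138 in Ia_high, a ratio of 2.38 (1.86 to 3.04). Slc15a4, a lysosomal transporter needed for Toll-like receptor signalling, had 27 tags in Ia_low and 31 in Ia_high, a ratio of 2.10 (1.21 to 3.64).

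The plasmacytoid genes called lower in Ia_low were Bcl11a and Mef2c. Bcl11a, a zinc finger factor needed for plasmacytoid and B cell development, had 11 tags in Ia_low and 82 in Ia_high, 3.09-fold lower (1.64 to 6.43). Mef2c, a factor of lymphoid and dendritic cell development, had 21 tags in Ia_low and 124 in Ia_high, 2.45-fold lower (1.53 to 4.09). Irf8, a dendritic cell factor, had 49 tags in Ia_low and 199 in Ia_high, a ratio of 0.594 that did not reach 2-fold. Klk1 and Cox6a2 were at 0 in both libraries, and Pacsin1 had 0 tags in Ia_low and 1 in Ia_high. Summed over the plasmacytoid marker list of 10 genes, 5 of them members, there were 37.2 tags per 100000 in Ia_low and 40.7 in Ia_high. This sum largely restates the members. Of its 53 tags in Ia_low, Runx2 held 30, Tcf4 12, Bst2 8, Spib 1 and Siglech 0. Of its 140 tags in Ia_high, Runx2 held 30, Tcf4 62, Bst2 14, Spib 24 and Siglech 4.

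Of 16 other plasma cell genes 8 were measured, with 0 called higher in Ia_low, 3 lower and 5 neither, and a median log2 ratio of -0.84. Slamf7, a surface receptor of plasma cells that dendritic cells also carry, had 19 tags in Ia_low and 235 in Ia_high, 5.12-fold lower (3.21 to 8.66). Irf4, which drives plasma cell fate and also conventional dendritic cell development, had 14 tags in Ia_low and 116 in Ia_high, 3.43-fold lower (1.97 to 6.47). Sec11c, a signal peptidase subunit, had 7 tags in Ia_low and 46 in Ia_high, 2.72-fold lower (1.22 to 7.15). Txndc5, an oxidoreductase, had a ratio of 1.15 and Ssr4, a translocon protein, a ratio of 0.988, the highest on the list.

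The remaining plasma cell markers stood near 0. Sdc1 (CD138), by which plasma cells are sorted, had 3 tags in Ia_low and 0 in Ia_high, and Mzb1, a chaperone of antibody assembly, had 1 in Ia_low and 0 in Ia_high. Derl3 had 1 in Ia_low and 3 in Ia_high, Fkbp11 had 1 in Ia_low and 2 in Ia_high, and Tnfrsf17, a survival receptor, had 0 in both. Summed over the plasma cell marker list of 8 genes, 3 of them members, there were 69.5 tags per 100000 in Ia_low and 29.96 in Ia_high. This sum largely restates the members. Of its 99 tags in Ia_low, Jchain held 48, Xbp1 25 and Prdm1 20, and of its 103 in Ia_high they held 49, 41 and 8.

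Few secretory genes around Xbp1 were called. Of 23 endoplasmic reticulum folding genes, all measured, 0 were called higher in Ia_low and 1 lower, with a median log2 ratio of 0.17. Ern1, the Xbp1 splicing enzyme, had 32 tags in Ia_low and 40 in Ia_high, a ratio of 1.93 (1.17 to 3.15). Sdf2l1, a chaperone partner, had 11 tags in Ia_low and 16 in Ia_high, a ratio of 1.66 (0.697 to 3.81). The gene called was Herpud1, which takes part in degradation of misfolded proteins, with 27 tags in Ia_low and 136 in Ia_high, 2.09-fold lower (1.37 to 3.28). Sec61b, a translocon subunit, had 2 tags in Ia_low and 9 in Ia_high, a ratio of 0.537.

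Of 6 genes that Prdm1 represses in B cells 5 were measured, with 1 called lower in Ia_low and 0 higher, and a median log2 ratio of -0.95. Ciita, the class II transactivator, had 22 tags in Ia_low and 267 in Ia_high, 5.03-fold lower (3.25 to 8.16). It governs the gene family by which the cells were sorted. Pax5, the B cell identity factor, had 1 tag in Ia_low and 11 in Ia_high. Bcl6, a germinal centre repressor, had 81 tags in Ia_low and 179 in Ia_high, a ratio of 1.09, and Bach2 had 8 in Ia_low and 13 in Ia_high, a ratio of 1.49.

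Among 14 partners and relatives of the member factors 12 were measured, with 2 called higher in Ia_low, 1 lower and 9 neither, and a median log2 ratio of 0.01. Ets2, an Ets factor like Spib, had 53 tags in Ia_low and 37 in Ia_high, a ratio of 3.46 (2.23 to 5.41). Spi1 (PU.1), the close relative of Spib, had 58 tags in Ia_low and 70 in Ia_high, a ratio just over 2-fold (1.39 to 2.87). Tcf3, an E protein related to Tcf4, had 9 tags in Ia_low and 9 in Ia_high, and its interval included 1 (0.849 to 6.86). Runx3, a relative of Runx2, had 17 tags in Ia_low and 87 in Ia_high, 2.12-fold lower (1.25 to 3.80). Cbfb, the common partner of the Runx factors, had 9 tags in Ia_low and 39 in Ia_high, a ratio of 0.557 (0.237 to 1.17). Id2, which opposes the E proteins, had 31 tags in Ia_low and 111 in Ia_high, a ratio of 0.674 (0.437 to 1.01).

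**Figure D5:**
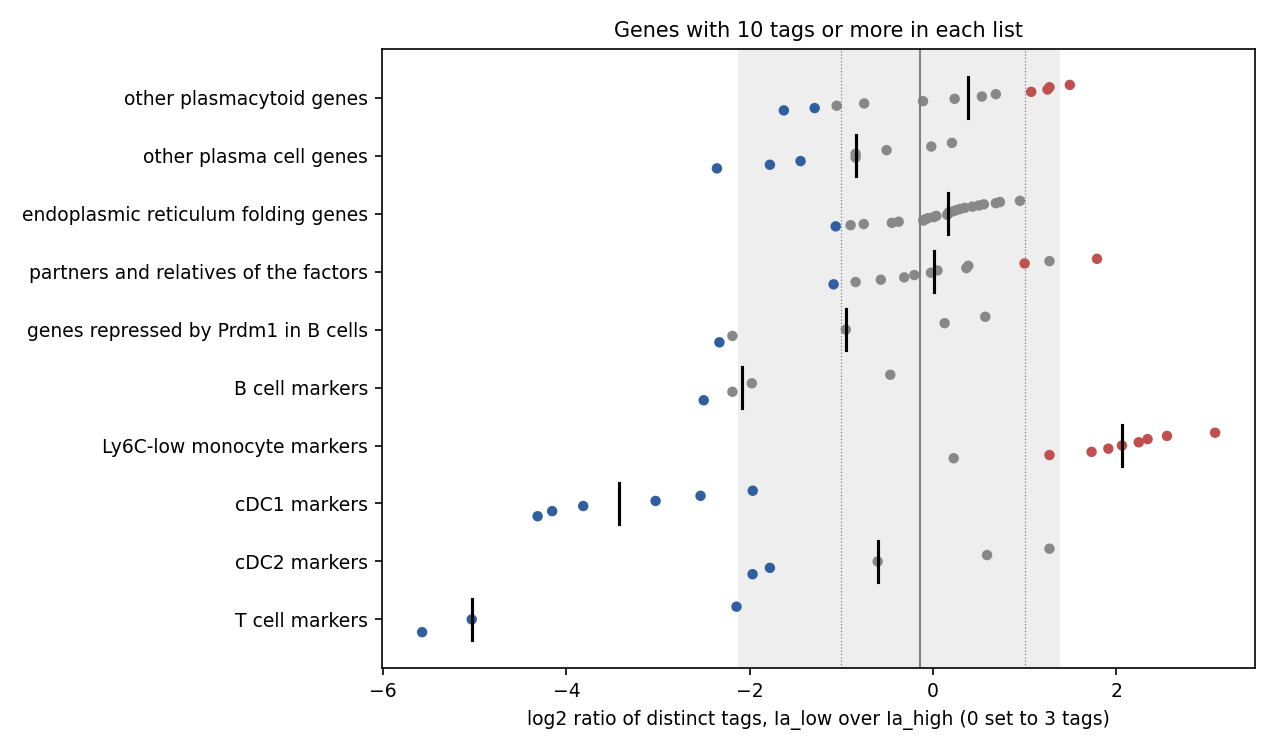
Log2 ratio of Ia_low to Ia_high in distinct tags for the measured genes of each list, with genes called higher in red and called lower in blue, the list median as a black tick, other genes in grey, and all measured genes as a grey band from the 5th to the 95th percentile with their median as a line; a count of 0 is set to 3 tags and dotted lines mark 2-fold. Ly6C-low monocyte markers lie to the high side (median 2.06) and cDC1 markers to the low side (median -3.42).

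Markers of other cells that a CD11c gate can hold also differed between the libraries. Of 9 Ly6C-low monocyte markers, all measured, 8 were called higher in Ia_low, and the list summed to 1256 tags per 100000 in Ia_low and 483 in Ia_high. Ace had 294 tags in Ia_low and 84 in Ia_high, a ratio of 8.45 (6.61 to 10.9), and Spn had a ratio of 5.87, while the lowest were Treml4 at 2.41 and Nr4a1 at 1.17. Of 7 cDC1 markers 6 were measured and all 6 were called lower in Ia_low, with sums of 70.2 per 100000 in Ia_low and 367 in Ia_high. Clec9a had 2 tags in Ia_low and 96 in Ia_high, 19.9-fold lower, and Itgae had 1 in Ia_low and 43 in Ia_high, 17.8-fold lower. Xcr1 had 0 tags in Ia_low and 42 in Ia_high, at least 5.80-fold lower with 3 tags as the floor, and Wdfy4 was 3.91-fold lower. Of 7 cDC2 markers 5 were measured, with Irf4 and Cd209a lower in Ia_low, and with ratios of 1.51 for Sirpa and 2.41 for Clec10a that were not called. They summed to 119 per 100000 in Ia_low and 132 in Ia_high.

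Of 11 B cell markers 4 were measured, and 1 was called lower in Ia_low. Their sum was 7.73 per 100000 in Ia_low and 29.4 in Ia_high. Cd22 had 3 tags in Ia_low and 41 in Ia_high, 5.66-fold lower (1.81 to 28.6), Bank1 had 2 in Ia_low and 19 in Ia_high, and Ms4a1 (CD20) had 0 in Ia_low and 10 in Ia_high. Of 7 T cell markers 3 were measured, all called lower, with sums of 2.11 per 100000 in Ia_low and 65.7 in Ia_high. Cd4 had 1 tag in Ia_low and 115 in Ia_high, Cd8a had 1 in Ia_low and 79 in Ia_high, and dendritic cell subsets carry both. Tcf7 had 0 tags in Ia_low and 32 in Ia_high, and the defining genes Cd3e, Cd3d and Cd3g were at 0 in both libraries. Of 6 NK cell markers 1 was measured, Klrk1 with 3 tags in Ia_low and 12 in Ia_high, and the list summed to 7.02 per 100000 in Ia_low and 4.65 in Ia_high. What part these cells take in the ratios of the members was not tested.

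Antisense tags of the 8 genes were few, 1 in Ia_low and 4 in Ia_high. For Xbp1, tags of 20 to 24 nt were 5 in Ia_low and 18 in Ia_high, a ratio of 0.911, and tags of 25 to 30 nt were 20 in Ia_low and 23 in Ia_high, a ratio of 1.68.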

How the data were processed

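Each library was deposited as 1 file of unscaled read counts, 1 line for each sequence with its length. Per the labels' protocols, CD11c beads and a sort on Ia gave the cells, RNA of 18 to 30 nt was taken from a gel, and product was amplified for 12 PCR cycles. How the authors trimmed or filtered reads is not given in the sources used here. The libraries hold 758783 tags with 13739811 reads (Ia_low) and 1185709 tags with 16388303 reads (Ia_high).

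Tags were matched without mismatch to 141767 GENCODE M21 transcripts (GRCm38), on both strands. Distinct tags per gene were divided by the library's mRNA tags. The ratio has an exact Clopper-Pearson interval, with a minimum of 10 tags and a floor of 3 counts where a library had 0. Python 3.11.15, numpy 2.4.6, scipy 1.17.1 and pandas 2.3.3 were used. Counting tags rather than reads lessens the weight of PCR copies, and tags identical to transcripts of several protein-coding genes were left out. In a test on simulated data with 200 changed genes, 42% of genes 2-fold higher and 80% of genes 4-fold higher were called. Of those 2-fold and 4-fold lower, 26% and 86% were called. The simulated counts were independent, so the test leaves out overlap between tags and PCR copies. The members and lists were chosen with earlier results of these data known, and of each list the 2 highest and 2 lowest measured ratios were named. In all, 15 alternatives were planned.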

Additional observations from a re-analysis of the deposited data

Results flagged for a closer look

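Tags of 31 to 44 nt, outside the counted range, numbered 186623 (24.6% of all tags) in Ia_low and 49411 (4.17%) in Ia_high. A few of them matched the genes. In Ia_low, Runx2 had 6 such tags with 36 reads, Tcf4 5 with 21, Jchain 5 with 37, Prdm1 4 with 23, Xbp1 9 with 63 and Spib 3 with 17. In Ia_high, Jchain had 2 with 9 reads, Prdm1 1 with 6, and Runx2, Tcf4, Xbp1 and Spib had 0. No length this long is named in the protocol, and these tags entered no ratio, including those by which Tcf4 and Spib were called lower. With 1 library a group the difference was not tested.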

How the results depend on the processing

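Over distinct tags, 3 members were higher and 2 lower in Ia_low, and of 7132 genes 443 (6.21%) and 607 (8.51%). In reads, 4 members were higher and 2 lower, and of 7132 genes 808 (11.3%) and 1422 (19.9%). With tags of 20 to 24 nt, 2 members were higher and 0 lower, and of 4979 genes 273 (5.48%) and 268 (5.38%). With tags of 25 to 30 nt 3 members were higher and 1 lower, and of 5435 genes 377 (6.94%) and 430 (7.91%). With coding tags alone 4 members were higher and 0 lower, and of 5032 genes 314 (6.24%) and 349 (6.94%). Scaled to all tags, 1 member was higher and 2 lower, and of 7132 genes 220 (3.08%) and 1298 (18.2%). The median log2 ratio over all genes was then -0.55. Centred on the median, 3 members were higher and 1 lower, and of 7132 genes 594 (8.33%) and 456 (6.39%). At 3-fold, 1 member was higher and 1 lower, and of 7132 genes 234 (3.28%) and 384 (5.38%). No alternative with a value turned the direction of a called member, and the cause of these changes was not tested. The alternatives by separate stretches, without the most read tag and standardised over tag lengths were chosen after seeing the data. The last gave 3 members higher and 2 lower, and of 7132 genes 464 (6.51%) and 613 (8.60%).

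The ratio of Runx2 ran from 1.09 to 3.70 over the alternatives, Tcf4 from 0.330 to 0.754, Spib from 0.0307 to 0.703 (a bound from 0 tags), Jchain from 1.79 to 3.37, Bst2 from 0.328 to 3.37 and Xbp1 from 0.911 to 2.82. No value is given for Siglech, or for Spib in coding tags (0 in Ia_low and 6 in Ia_high). Other counts of 0 in Ia_low gave bounds. No paired analysis was possible because each group has 1 library. Counts of 1 to 48 tags in Ia_low limit every ratio here, and no replicate gauges the spread between animals.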

Other observations

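Joining segments of immunoglobulin genes enter no comparison above, and 2 of them, named after their values were seen, were past the limits of a call. Ighj4 had 14 tags with 568 reads in Ia_low and 11 tags with 67 reads in Ia_high. Igkj5 had 13 tags with 237 reads in Ia_low and 3 tags with 30 reads in Ia_high.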
